A study of Saccharomyces cerevisiae with 4 samples.

Results

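The nuclear pore complex is the channel through which proteins, messenger RNA and ribosomal subunits pass between nucleus and cytoplasm. This account concerns the 32 genes of budding yeast (Saccharomyces cerevisiae) that encode its subunits, the nucleoporins, among the 6207 gene rows of the deposited table. The members were chosen by systematic gene ID: the scaffold, membrane, channel, cytoplasmic and basket nucleoporins, with the associated GLE1, GLE2, MLP1, MLP2 and SEC13. All 32 IDs had a row with a value on all 4 arrays, and all 32 carried the matching symbol in the RefSeq gene table of assembly R64.

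The series compared cells lacking LOC1 with wild-type cells on 4 two-colour arrays, each holding the labelled RNA of 1 knockout culture and 1 wild-type culture. The knockout strain is labelled PSY3262 and the wild type PSY3259, with 1 conflict: for array 4 the wild-type sample is tagged PSY3262 but described as wild type, and the description was followed. Cultures of 50 mL grew in rich medium (YPD) at 30 °C to an optical density of 0.2 to 0.4. Per the labels, the 4 arrays are separate biological replicates, 2 with the knockout in Cy5 (arrays 1 and 4) and 2 with it in Cy3 (arrays 2 and 3). The sources used here do not give the strains' alleles, ploidy or mating type.

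The pore is built in layers. An outer ring of Y-shaped complexes and an inner ring form the scaffold, a membrane ring holds it in the nuclear envelope, and nucleoporins with phenylalanine-glycine repeats fill the channel and bind the transport receptors. Filaments on the cytoplasmic side release exported messenger RNA, and a basket reaches into the nucleus. Pre-ribosomal subunits leave the nucleus through the same channel. Loc1, the product of the deleted gene, is a nuclear RNA-binding protein of large-subunit assembly and of ASH1 mRNA localization.

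Each value is a deposited log ratio of the channels, given here as knockout over wild type in deposited log units. The base is not stated. The values end exactly at a size of 2, and they were taken as base 10, so folds are given "if base 10". Each column was turned so that LOC1 lay below 0, which it then did at -1.20, -0.972, -1.07 and -1.31 on arrays 1 to 4. Its size is measured and its sign is set by the turn. The dye labels give another turn: as deposited, arrays 1 and 4 share a labelled orientation yet correlated at r = -0.723 across 6191 genes, and arrays 2 and 3 at r = -0.612. Read as Cy5 over Cy3, the labels match the turn by LOC1 on arrays 1 and 2 and differ from it on arrays 3 and 4. The direction used here therefore rests on LOC1 being the deleted gene, and the labels do not settle it. Were every column turned the other way, each "higher" and "lower" below would exchange. LOC1 would then lie above 0 in the strain that lacks it. A ratio carries no level, so the abundance of each messenger is unknown.

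Of the 32 pore genes, 10 were lower in the knockout and 0 were higher (limma, Benjamini-Hochberg adjusted p under 0.05 over 6205 genes). With every column turned the other way, which would put LOC1 above 0, these would be 10 higher and 0 lower. Turned by the dye labels instead, 0 were lower and 0 were higher. Over all genes tested, 21.7% were lower and 22.5% higher by the same rule. The lower pore genes were NUP145, NDC1, SEC13, MLP2, NUP157, NUP192, NUP82, POM152, NUP120 and NUP1. The changes were small, with means from -0.130 to -0.0732 log units, or 1.35-fold to 1.18-fold lower if base 10. The median of all 32 members was -0.0365, against 0.0019 for all genes tested. Means lay below 0 for 25 members and above 0 for 7.

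A pair of measurements bears on how this count reads. The first is gene length: pore genes are long, with a median coding length of 2378 bases against 1245 for all genes with one, and the log ratio fell with coding length over the whole table. Among genes of at least 1800 bases, 36.1% were lower and 6.9% higher, and the 21 pore genes of that size had 9 lower and 0 higher. The second is the array: without array 4, 4 pore genes were lower, and without array 1, 2 or 3, 6 were. Counts over the whole table fell as well. Of all genes, 1345 were lower on 4 arrays, and 1056, 1301, 988 and 977 without array 1, 2, 3 and 4. After each column was corrected for its trend over coding length, 3 pore genes were lower (SEC13, NDC1 and NUP145) and 3 were higher (NIC96, NUP85 and ASM4), against 21.5% lower and 20.1% higher over the 5635 genes in that fit. The corrected median of the 32 members was -0.0011.

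**Figure D1:**
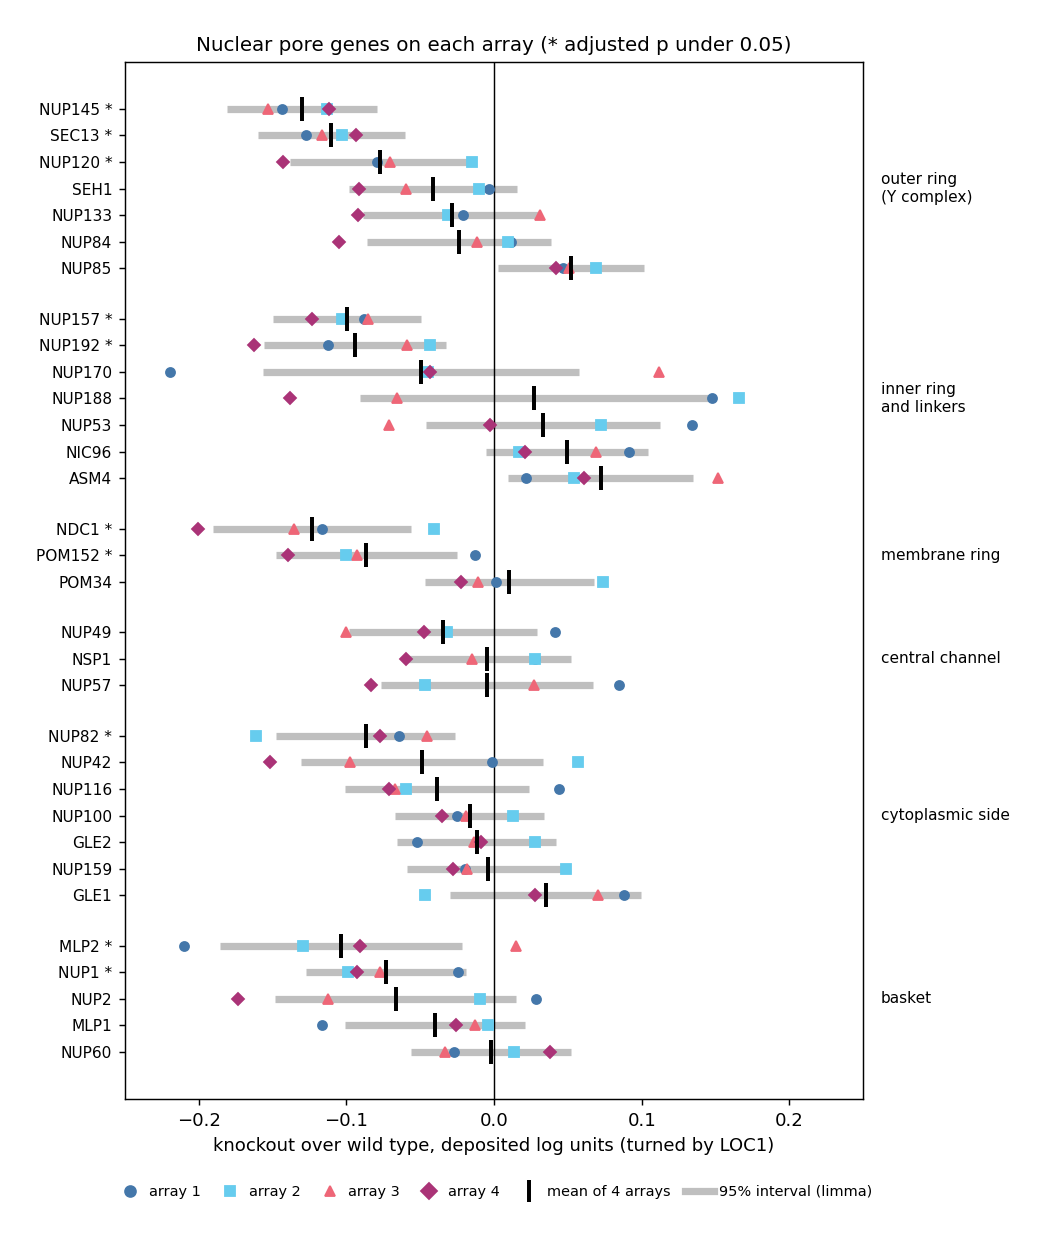
Log ratio of knockout over wild type (horizontal axis, deposited log units, each column turned by LOC1) for the 32 pore genes, grouped by place in the pore. Coloured symbols are the 4 arrays, black ticks their mean, grey bars the 95% interval from limma, and stars mark adjusted p under 0.05. All 10 starred genes have means below 0, while NUP188, NUP170 and NUP53 are spread on both sides of 0.

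The outer ring held NUP145, the lowest mean of the 32. Its Y complexes coat the curved membrane on both faces of the pore, and 3 of the 7 genes were lower and 0 higher, with a median of -0.0410. That is 42.9% lower, beside 21.7% of all genes and 36.1% of those of at least 1800 bases. Every layer of the pore also held genes shorter than 1800 bases, so the 36.1% is not matched to the lengths of a layer. NUP145 (YGL092W) encodes a precursor that cuts itself into a repeat-bearing part and a scaffold part. It was at -0.143, -0.113, -0.153 and -0.112 on arrays 1 to 4, a mean of -0.130 ± 0.0209 (SD, n = 4) and 1.35-fold lower if base 10, with limma adjusted p = 0.0026. All 4 arrays lay close together and below 0. SEC13 (YLR208W), a small propeller protein that the pore shares with the COPII coat of transport vesicles, was at -0.128, -0.103, -0.117 and -0.0933, a mean of -0.110 ± 0.0150 (limma adjusted p = 0.0049). Both kept their calls without any 1 array, at adjusted p of at most 0.0183 for NUP145 and 0.0276 for SEC13.

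NUP120 (YKL057C), which forms 1 arm of the Y, was less even. It lay at -0.0794, -0.0147, -0.0707 and -0.143, a mean of -0.0769 ± 0.0524 (SD, n = 4, limma adjusted p = 0.0461), lowest on array 4 and near 0 on array 2. Its call was lost without array 1 (-0.0760, adjusted p = 0.117), array 3 (-0.0789, 0.117) or array 4 (-0.0549, 0.182). NUP85 (YJR042W), a partner of SEH1 in the other arm, was the one outer-ring gene above 0 on every array, at 0.0467, 0.0690, 0.0509 and 0.0419. Its SD of 0.0118 was the smallest of all members, and its mean of 0.0521 did not pass (limma adjusted p = 0.0809). The remaining genes did not pass either: SEH1 had a mean of -0.0410 with all arrays below 0, NUP133, at the base of the Y stem, had -0.0282, and NUP84, also of the stem, had -0.0238.

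The inner ring and its linkers line the membrane and anchor the channel. Of these 7 genes, 2 were lower (28.6%, beside 21.7% of all genes and 36.1% of those of at least 1800 bases) and 0 higher, with a median of 0.0273. NUP157 (YER105C) was at -0.0879, -0.103, -0.0852 and -0.123, a mean of -0.0998 ± 0.0174 (SD, n = 4, limma adjusted p = 0.0078). NUP192 (YJL039C), the largest scaffold protein of the ring, was at -0.112, -0.0434, -0.0587 and -0.162, a mean of -0.0942 ± 0.0542 (limma adjusted p = 0.0227). Every array placed both below 0. NUP157 kept its call without any 1 array, and NUP192 lost it without array 1 (-0.0882, adjusted p = 0.0808) or array 4 (-0.0715, adjusted p = 0.0982).

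The other inner-ring genes did not pass, and 4 of the 5 had means above 0. ASM4 (YDL088C), which encodes the membrane-binding linker also called Nup59, was at 0.0218, 0.0541, 0.152 and 0.0610, with a mean of 0.0722 ± 0.0558 (SD, n = 4, limma adjusted p = 0.0610). NIC96 (YFR002W), the linker that anchors the channel nucleoporins, was at 0.0914, 0.0171, 0.0689 and 0.0208, with a mean of 0.0496 ± 0.0366 (limma adjusted p = 0.126). Both lay above 0 on every array. NIC96 is also the gene next to LOC1 in the RefSeq table. Whether the deletion itself touches its messenger was not tested.

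NUP188 (YML103C), a large scaffold protein related to Nup192, stood apart. It was at 0.147 and 0.166 on arrays 1 and 2, and at -0.0658 and -0.138 on arrays 3 and 4, for a mean of 0.0273 ± 0.152 (SD, n = 4), the widest spread of the 32 members. Arrays 1 and 2 lay on one side of 0 and arrays 3 and 4 on the other. Fitted on arrays 1 and 2 alone it was higher (0.157, limma adjusted p = 0.0346), and on arrays 3 and 4 alone lower (-0.102, adjusted p = 0.02002). Turned by the dye labels in place of LOC1, its values were 0.147, 0.166, 0.0658 and 0.138, all of one sign, with unadjusted p = 0.0097 and adjusted p = 1.00 in limma. Under that turn 5 of the 32 members, NUP188 among them, had the same sign on every array. NUP188 was the one member with an unadjusted p under 0.05 in that limma fit. There 0 members and 1 gene of the table passed after adjustment, and 72 genes had an unadjusted p under 0.05. NUP53, the related partner of ASM4, also changed side, at 0.134, 0.0723, -0.0712 and -0.0026, and NUP170 ran from -0.220 on array 1 to 0.111 on array 3.

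Of the 3 membrane-ring genes, which encode the transmembrane nucleoporins, 2 were lower and 0 higher. Beside them stand 21.7% lower of all genes and 36.1% of those of at least 1800 bases. NDC1 (YML031W), whose product also inserts the spindle pole body into the nuclear envelope, was at -0.117, -0.0403, -0.135 and -0.2005, a mean of -0.123 ± 0.0659 (SD, n = 4, 1.33-fold lower if base 10, limma adjusted p = 0.0108). It was lower on every array and most so on array 4, and it kept its call without any 1 array, at adjusted p of at most 0.0465. POM152 (YMR129W) was at -0.0129, -0.1001, -0.0931 and -0.139, a mean of -0.0864 ± 0.0530 (limma adjusted p = 0.0306). Its call was lost without array 2 (-0.0818, adjusted p = 0.0699), array 3 (-0.0841, 0.0999) or array 4 (-0.0687, 0.124). POM34 had a mean of 0.0104 and did not pass.

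None of the 3 channel genes passed. NSP1, NUP49 and NUP57 encode the repeat-bearing trimer at the centre of the pore, and their means were -0.0050, -0.0344 and -0.0048, with 95% intervals from limma of -0.0618 to 0.0519, -0.0981 to 0.0293 and -0.0767 to 0.0671. Each of these genes had arrays on both sides of 0. The lower ends for NUP49 and NUP57 reach past -0.0732, the smallest of the lower calls.

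On the cytoplasmic side 1 of 7 genes was lower (14.3%, beside 21.7% of all genes and 36.1% of those of at least 1800 bases) and 0 were higher. NUP42, GLE1 and GLE2 of this layer are shorter than 1800 bases. NUP82 (YJL061W), the platform that holds the cytoplasmic filaments, was at -0.0643, -0.161, -0.0453 and -0.0773, a mean of -0.0869 ± 0.0510 (SD, n = 4, limma adjusted p = 0.0284). It was lower on every array, yet its call was lost without array 1 (-0.0945, adjusted p = 0.0615), 2 (-0.0623, 0.0833), 3 (-0.101, 0.0501) or 4 (-0.0901, 0.0707). NUP159 and GLE1, which act with the helicase Dbp5 in the release of messenger RNA, had means of -0.0043 and 0.0350. NUP42, a partner of Gle1, had -0.0486, and GLE2, which binds Nup116, had -0.0116. The repeat nucleoporins NUP100 and NUP116 had -0.0165 and -0.0386. On single arrays these 6 genes ran from -0.152 to 0.0882, and each lay on both sides of 0.

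In the basket, 2 of 5 genes were lower and 0 higher, and all 5 means lay below 0. That is 40% lower, beside 21.7% of all genes and 36.1% of those of at least 1800 bases. NUP1 (YOR098C), a repeat nucleoporin that binds the nuclear membrane, was at -0.0241, -0.0991, -0.0769 and -0.0927, a mean of -0.0732 ± 0.0340 (SD, n = 4, limma adjusted p = 0.0356). MLP2 (YIL149C), a long coiled-coil filament protein, was at -0.210, -0.129, 0.0149 and -0.0909, a mean of -0.104 ± 0.0933 (limma adjusted p = 0.0449), and it alone among the lower members had an array above 0. NUP1 lost its call without array 2 (-0.0646, adjusted p = 0.0908), 3 (-0.0720, 0.114) or 4 (-0.0667, 0.12), and MLP2 without array 1 (-0.0684, 0.171), 2 (-0.0953, 0.103) or 4 (-0.108, 0.0936). NUP2, which helps recycle importin alpha, was at 0.0287, -0.0093, -0.112 and -0.173 and did not pass. MLP1 had a mean of -0.0398 and NUP60, which anchors the Mlp proteins, had -0.0022.

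The members moved unevenly across arrays. Their median was -0.0163, -0.0123, -0.0392 and -0.0805 on arrays 1 to 4, against 0.0070, 0.0107, 0.0013 and -0.0119 for all genes tested. Values lay below 0 for 19, 19, 24 and 27 of the 32 members in turn. The shift was thus deepest on array 4. In all, 14 of 32 members (43.8%) had the same sign on every array, against 56.5% of all genes tested. The members' median SD between arrays of 0.0521 was close to the 0.0505 of all genes.

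Coding length was set against the log ratios after the lower members were seen to be mostly long. The RefSeq table gives the genomic span, with introns and without untranslated ends, and all 32 members had one. Across 5635 genes Spearman's rho between coding length and the mean log ratio was -0.417, and on the single arrays it was -0.302, -0.431, -0.343 and -0.411. Genes are not independent replicates, and the points share the 4 arrays. The median of all genes went from 0.0590 under 600 bases to -0.0605 at 3000 bases and over. In the class of 3000 bases and over, 7 of 13 pore genes were lower, beside 41.6% of all 495 genes. Under 1800 bases, 1 of 11 pore genes was lower (SEC13), beside 16.1% of all genes. What produces the trend over length was not tested.

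**Figure D2:**
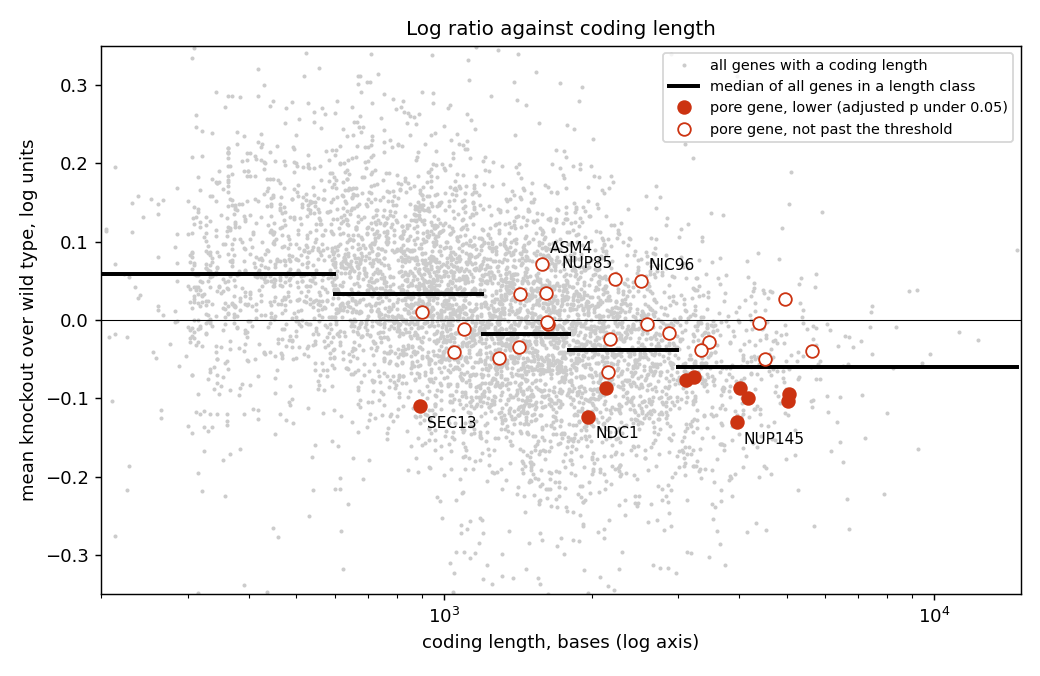
Mean log ratio over 4 arrays (vertical axis, log units) against coding length (horizontal axis, bases, log scale) for genes with a coding length. Grey dots are 5527 genes (108 lie outside the axes), black lines the median of all genes in each of 5 length classes, and red circles the pore genes, filled where lower. Filled circles lie mostly at 3000 bases and over, where the median of all genes is itself -0.0605, and SEC13 is the filled circle among short genes.

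The correction for coding length separated the members. SEC13, at a coding length of 894 bases, moved further from 0, to -0.142 ± 0.0242 log units (SD, n = 4, limma adjusted p = 0.0019). It kept that call without any 1 array, from -0.152 to -0.133 at adjusted p of at most 0.0128. NDC1 stayed lower at -0.0906 ± 0.0589 (adjusted p = 0.0288), as did NUP145 at -0.0675 ± 0.0282 (adjusted p = 0.0357). NDC1 lost the corrected call without array 1 (-0.0864, adjusted p = 0.0976), 3 (-0.0856, 0.0983) or 4 (-0.0720, 0.111), and NUP145 without any of the arrays (-0.0770 to -0.0555, adjusted p = 0.0540 to 0.153). The other 7 lower members lay between -0.0496 and -0.0169 after the correction and did not pass.

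Above 0, NIC96 was at 0.0961 ± 0.0267 and NUP85 at 0.0919 ± 0.0176 log units after the correction (SD, n = 4, limma adjusted p = 0.0091 and 0.0090). Both were also higher without any 1 array, NIC96 from 0.0863 to 0.107 and NUP85 from 0.0860 to 0.0992. ASM4 reached 0.0927 ± 0.0633 (adjusted p = 0.0303) and lost the call without array 3 (0.0658, adjusted p = 0.125) or array 4 (0.0891, adjusted p = 0.0888). By layer, the corrected medians were -0.0218 in the outer ring, 0.0469 in the inner ring, -0.0231 in the membrane ring, 0.0171 in the channel, 0.0189 on the cytoplasmic side and -0.0169 in the basket.

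**Figure D3:**
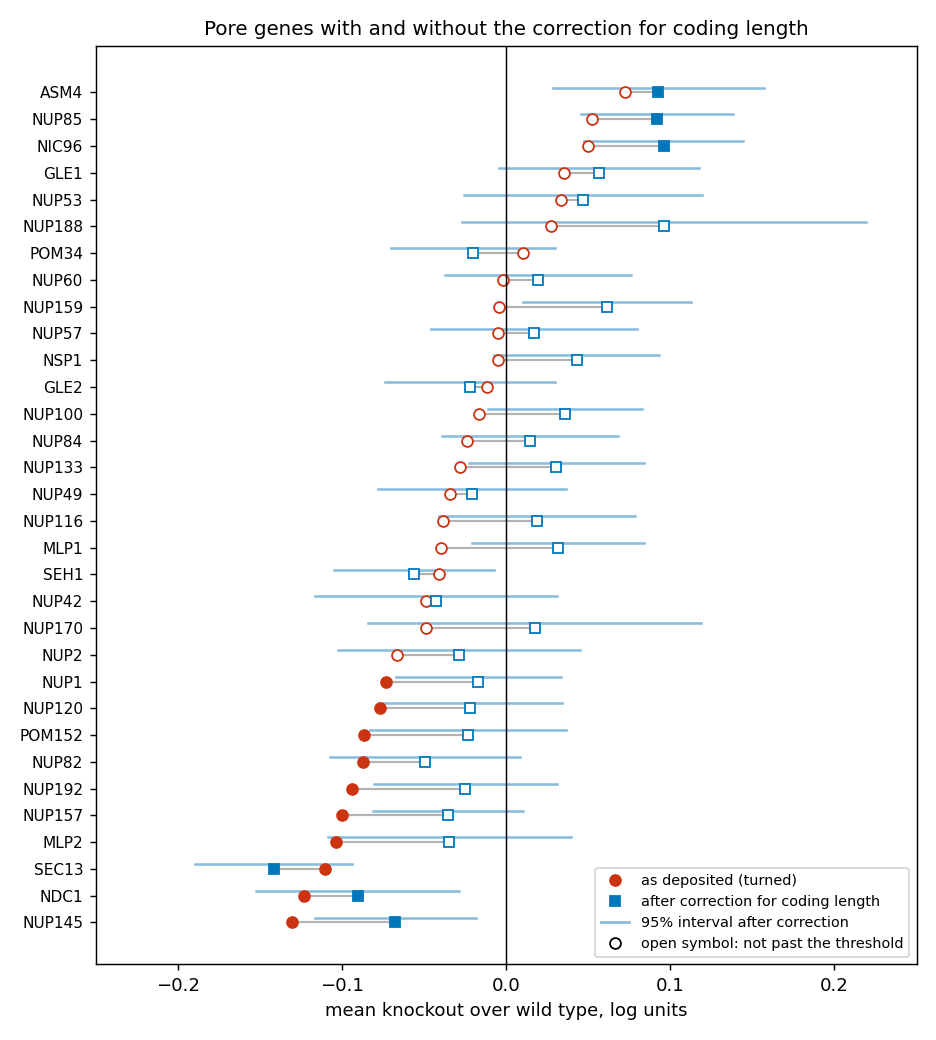
Mean log ratio (horizontal axis, log units) of each pore gene as deposited and turned (red circles) and after the correction for coding length (blue squares, with 95% intervals from limma in light blue). Filled symbols pass adjusted p under 0.05. SEC13, NDC1 and NUP145 are filled in both settings, and NIC96, NUP85 and ASM4 are filled and above 0 after the correction.

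The 4 pairs of related nucleoporin genes were compared as the difference within each array. The two-sided exact sign-flip permutation test cannot go below p = 0.125 with 4 arrays, so it could call no pair different, and the differences are given as values. MLP2 was lower than MLP1 on 3 of 4 arrays, by 0.0639 ± 0.0658 log units (SD, n = 4, exact p = 0.25, adjusted over the 4 pairs 0.667). NUP157 minus NUP170 was -0.0506 ± 0.136, NUP100 minus NUP116 was 0.0221 ± 0.0623, and ASM4 minus NUP53 was 0.0391 ± 0.142, with exact p from 0.5 to 0.75. Probe sequences were not used here, so related genes may share signal.

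Genes that work with the pore were read from lists of related genes. The karyopherins, the receptors that carry cargo through the channel, had 7 of 15 lower (46.7%) and 0 higher, with a median of -0.0736. Of all genes tested, 21.7% were lower. Among genes of 3000 bases and over, 41.6% were lower and 3.2% higher, with a median of -0.0605. KAP120, an import receptor, was at -0.162 ± 0.0994 (SD, n = 4), KAP95, which encodes importin beta, at -0.110 ± 0.0234, CRM1, the main export receptor, at -0.0972 ± 0.0160 and MSN5, also an exporter, at -0.0950 ± 0.0298 (limma adjusted p from 0.0056 to 0.0117). The karyopherin genes are long too, with a median of 3099 bases. After the correction for length 2 of the 15 were lower (13.3%, beside 21.5% of all genes in that fit). They were KAP95 at -0.0624 and KAP120 at -0.107 (limma adjusted p = 0.0368 and 0.0499). Leaving out 1 array of the corrected fit ended the call of KAP95 each time (-0.0683 to -0.0568) and that of KAP120 without array 1, 3 or 4 (-0.0966 to -0.0869). In the uncorrected fit, 4 karyopherins were lower without array 1 or array 4.

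The Ran cycle, which gives transport its direction, had 1 of 9 genes lower (11.1%, beside 21.7% of all genes tested) and 0 higher. SRM1, the exchange factor that loads Ran with GTP, was at -0.111 ± 0.0481 log units (SD, n = 4, limma adjusted p = 0.0098), and YRB2, a Ran-binding cofactor of export, was at -0.102 ± 0.0987 (adjusted p = 0.0546). The Ran cycle genes are short, with a median of 663 bases. Among all genes of 600 to 1197 bases, 12.7% were lower and 31.9% higher. After the correction 5 of the 9 Ran cycle genes were lower: SRM1, YRB2, MOG1, GSP2 and NTF2, the last 3 named after their values were seen. That is 55.6%, beside 21.5% of all genes in that fit. The correction itself moved these means. MOG1 went from -0.0374 to -0.0913, GSP2 from -0.0488 to -0.102 and NTF2 from -0.0092 to -0.0733. YRB2 went from -0.102 to -0.123, and SRM1 the other way, from -0.111 to -0.0962. Without array 1, 3 or 4 the corrected fit gave 3 lower genes, and without array 2 or 3 the uncorrected fit gave 2.

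Of the 17 messenger RNA export genes measured, 5 were higher (29.4%) and 4 lower (23.5%), near the 22.5% and 21.7% of all genes tested. After the correction for length, 4 were higher and 2 lower. YRA2 at 0.201 ± 0.0482 and YRA1 at 0.132 ± 0.0625 encode related RNA-binding adaptors, MTR2 at 0.138 ± 0.0229 encodes the small partner of the export receptor Mex67, and THP1 at 0.119 ± 0.0319 encodes a subunit of the TREX-2 complex at the basket (SD, n = 4, limma adjusted p from 0.00081 to 0.0075). All 4 were also higher after the correction for length, where MTR2 at 0.0791 lost its call without array 3 (0.0654, adjusted p = 0.101) or array 4 (0.0786, 0.0670). The lower genes, named after their values were seen, were HPR1 and THO2 of the THO complex at -0.113 and -0.0975, the RNA-binding protein gene NPL3 at -0.109 and the helicase gene SUB2 at -0.107. After the correction NPL3 and SUB2 were still lower, while HPR1 (-0.0727, adjusted p = 0.0944), THO2 (-0.0295, 0.358) and, of the higher genes, GFD1 (0.0900 before, 0.0315 after, 0.249) did not pass. NPL3 lost the corrected call without array 3 (-0.0904, adjusted p = 0.0670) or array 4 (-0.0904, 0.0595). Without array 3, 2 of the list were lower in the uncorrected fit. MEX67 itself had a mean of -0.0321 and did not pass. SUS1 and SEM1 were not analysed here.

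Among genes of pore assembly and the nuclear membrane, 5 of 16 were higher (31.25%) and 2 lower (12.5%), beside 22.5% and 21.7% of all genes tested. The list has a median coding length of 1101 bases, in a range of 417 to 4977. Among all genes of 600 to 1197 bases, 31.9% were higher and 12.7% lower, close to the list's shares. After the correction for length 4 of the 16 were higher (25%) and 1 lower (6.25%), beside 20.1% and 21.5% of all genes in that fit. APQ12, which encodes a nuclear envelope protein needed for pore assembly and messenger RNA export, was the largest at 0.249, 0.439, 0.290 and 0.303 on arrays 1 to 4, a mean of 0.320 ± 0.0822 log units (SD, n = 4, 2.09-fold if base 10, limma adjusted p = 0.000298). All 4 arrays lay well above 0, and after the correction it was at 0.258 (adjusted p = 0.000723). BRR6, which acts with it, was at 0.154 ± 0.0353 and the membrane-curving YOP1 at 0.129 ± 0.0432, while NUR1, of the inner nuclear membrane, was lower at -0.119 ± 0.0406 (adjusted p from 0.0017 to 0.0061). These 3 also passed in the same direction after the correction. The other called genes, named after their values were seen, did not: DYN2 went from 0.104 to 0.0422 (adjusted p = 0.143), SNL1 from 0.0916 to 0.0308 (0.338) and SRC1 from -0.0822 to -0.0336 (0.282). ULP1 was not past the threshold before the correction (0.0467) and was higher after it (0.0763, adjusted p = 0.0378), a call lost without array 1, 3 or 4 (0.0608 to 0.0764). In the corrected fit BRR6 lost its call without array 4 (0.0770, adjusted p = 0.0558), NUR1 without array 1 (-0.0852, 0.0693) and YOP1 without array 2, 3 or 4 (0.0624 to 0.0801). Without array 4 the uncorrected fit had 1 lower gene of the 16.

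SEC13 and SEH1 serve in other complexes, which were read beside them. In the COPII coat, 5 of 7 genes other than SEC13 were lower and 0 higher, with a median of -0.144. That is 71.4% lower, beside 21.7% of all genes and 36.1% of those of at least 1800 bases. The cargo adaptors SFB3 and SEC24 were at -0.229 ± 0.0199 and -0.215 ± 0.0246 log units, SEC31, the direct partner of Sec13 in the coat, was at -0.204 ± 0.0245, and SEC23 was at -0.144 ± 0.0382 (SD, n = 4, limma adjusted p from 0.000227 to 0.0025). After the correction for length these 4 were still lower, from -0.178 to -0.103, and SFB2, the fifth lower gene, was not (-0.116 before, -0.0673 after, adjusted p = 0.109). The vesicle-forming GTPase gene SAR1 had 0.0303 and SEC16 had -0.0197, and neither passed. In the SEA complex, the vacuolar regulator of growth signalling that holds both Sec13 and Seh1, 2 of 6 other genes were lower. That is 33.3%, beside the same 21.7% and 36.1%. RTC1 at -0.0760 lost its call without array 1 (-0.0745, adjusted p = 0.1003), 2 (-0.0642, 0.101) or 4 (-0.0693, 0.121), and MTC5 at -0.0684 lost it without array 1 (-0.0518, 0.165), 2 (-0.0768, 0.0594), 3 (-0.0798, 0.0834) or 4 (-0.0652, 0.137). After the correction for length 0 of the 6 were lower and 1 was higher, and the list's median went from -0.0121 to 0.0510. RTC1 was then at -0.0127 (limma adjusted p = 0.670) and MTC5 at -0.0099 (0.740), and NPR2, named after its value was seen, was higher at 0.0933 (0.0184), a call lost without array 3 (0.0709, 0.0853) or array 4 (0.0933, 0.0565).

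**Figure D4:**
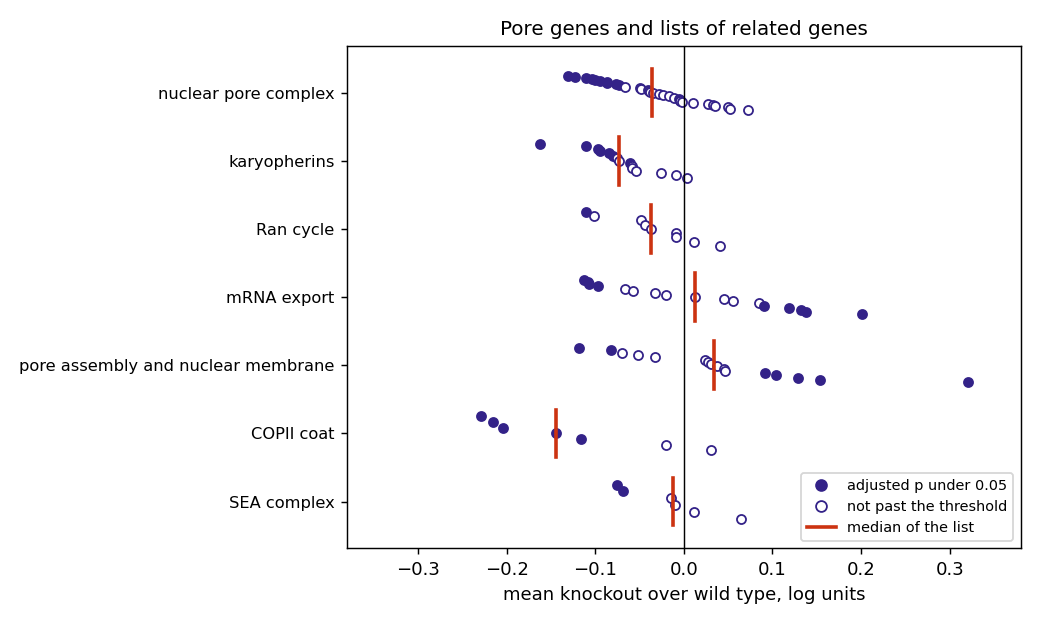
Mean log ratio (horizontal axis, log units) of the 32 pore genes and of 6 lists of related genes. Each circle is a gene, filled where adjusted p is under 0.05 in limma, and red lines are the medians. The COPII coat has the lowest median at -0.144, and APQ12 is the circle farthest to the right at 0.320.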

How the data were processed

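The authors' deposited log ratios, taken as log10 from their exact limits at a size of 2 (22 values in 17 genes), were used as given. The sources used here do not name their scanner, background correction, normalization or base. Rows of 3 controls were left out. Columns were turned by the sign of LOC1, not centred. The 6205 genes with 3 or more values entered a single limma 3.58.1 fit (lmFit, then eBayes, under R 4.3.3) of each mean against 0, two-sided, with Benjamini-Hochberg adjustment over all of them and a threshold of 0.05. In simulated data (6192 genes, of which 200 were given a change) the fit recovered 12% of changes of 0.1, 86% of 0.2 and 100% of 0.3 log units. In the data, 1398 genes were called higher and 1345 lower, and the adjustment is less strict where more genes pass. The simulated shares therefore do not give the limit of the fit to these data, which was not measured. Intensities were not used here, and precision is limited by how many arrays there are.

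The correction for coding length, added after the values were seen, subtracted a loess curve (span 0.5) over log10 length from each turned column of 5635 protein-coding rows. Lengths and symbols came from the RefSeq table of assembly R64, and no coordinates were used, since no build is named for the array. Members and lists were chosen with earlier results of these data known. All members are named, and of each related list up to 4 past the threshold with the largest changes, or, if fewer than 2 passed, the 2 of smallest p. No sequences were given for these genes, so none is shown. Alternatives were the turn by dye labels, pairs of arrays, centring, scaling, a term for the deposited sign, robust variances, complete rows, array weights and leaving out each array.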

Additional observations from a re-analysis of the deposited data

Results flagged for a closer look

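Of 40 sets of 4 arrays examined (32 members, LOC1, and 7 medians over members or layers), 2 had 1 array far from the other 3, by a gap over the whole range above Dixon's critical value for 4 values. Chance gives about 1 such set in 20. NUP116 had a ratio of 0.898, with array 1 at 0.0437 and the others between -0.0714 and -0.0596. NUP159 had a ratio of 0.874, with array 2 at 0.0487 and the others between -0.0279 and -0.0183. Neither gene passed the threshold on all 4 arrays.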

How the results depend on the processing

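Of the 10 pore genes called lower, the same 10 passed with columns centred, centred and scaled, with robust variances and with complete rows only. With array weights 9 of them passed beside NUP2, and ASM4 was higher, which made 1 higher member. With a term for the deposited sign 7 passed, and NUP1, NUP120 and MLP2 did not. On arrays 1 and 2 alone 1 member was lower (MLP2) and 1 higher (NUP188), with 554 lower and 631 higher genes in all. On arrays 3 and 4 alone 11 were lower, 8 of them among the 10, and 1 was higher (ASM4). Turned by the dye labels, 0 members passed, 1 gene of the table was higher and 0 were lower, and the members' median was 0.0139. Under that turn the means of called genes changed sign in NUP120 (0.0298), NUP145 (0.0020), NUP157 (0.0044), NUP192 (0.0163), NDC1 (0.0447), POM152 (0.0298), NUP1 (0.0116), KAP114 (0.0027), KAP120 (0.0465), MTR10 (0.0048), SRM1 (0.0348), MTR2 (-0.0147), SUB2 (0.0078), GFD1 (-0.0035), NPL3 (0.0599), BRR6 (-0.0145), SRC1 (0.0386), SEC23 (0.0118), SEC24 (0.0083), SFB2 (0.0505) and SFB3 (0.0072). That turn sets arrays that agree against each other by its construction. NUP188 was at -0.102 on arrays 3 and 4. Leaving out 1 array gave 4 to 6 lower and 0 higher members, with 977 to 1301 lower genes in all. The calls of NUP145, SEC13, NUP157 and NDC1 held each time. The correction for coding length gave 3 lower and 3 higher members and a median of -0.0011, and leaving out 1 array there gave 1 to 2 lower and 2 to 4 higher, medians of -0.0053, -0.0024, -0.0059 and -0.00062 without array 1, 2, 3 and 4, and 782, 783 and 832 higher and 841, 846 and 870 lower genes in all without array 1, 3 and 4. There RTC1 was at 9.08e-06 without array 2 and MTC5 at 0.0067 without array 1. The cause of these differences was not tested. Each array compares 1 knockout with 1 wild-type culture, and the fit tested these within-array ratios against 0, so the pairing on the array was used. No further pairing was possible, since the replicate number has no second group to pair with.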
